A study of Mus musculus with 6 samples.

Results

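The EGF family ligands and ErbB receptors were followed through TGFβ1 exposure and withdrawal in EpH4, an immortalized, near-normal mouse mammary epithelial cell line. They were taken by symbol from the deposited table as 10 genes, namely the 7 ligands *Areg*, *Ereg*, *Epgn*, *Btc*, *Hbegf*, *Tgfa* and *Nrg1* and the 3 receptors *Egfr*, *Erbb2* and *Erbb3*, of 17428 genes in all. All 10 were measured and all 10 passed the filter on low coverage, which left 13893 genes to test. The E cells had never been given TGFβ1, the M cells had received TGFβ1 in their medium for 7 days, and the RE cells had been returned to normal medium for another 4 days after the same 7 days of TGFβ1. The medium of all groups contained serum and insulin. RNA from 2 cultures of each stage was sequenced, so that n = 2 throughout, and all groups are stages of 1 cell line in bulk, where fewer cells of a type and less RNA per cell cannot be told apart.

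The ligands of this family are made as membrane-bound precursors that are released by proteases of the ADAM family and bind ErbB receptors on the same or neighbouring cells. Amphiregulin (*Areg*), TGFα (*Tgfa*) and epigen (*Epgn*) bind the EGF receptor (*Egfr*), heparin-binding EGF (*Hbegf*), epiregulin (*Ereg*) and betacellulin (*Btc*) bind the EGF receptor and ErbB4, and neuregulin (*Nrg1*) binds ErbB3 and ErbB4. ErbB2 has no known ligand and acts as the partner of the other receptors, while ErbB3 has little kinase activity of its own and recruits PI3 kinase. In the mammary gland, amphiregulin is known as the signal through which oestrogen and the EGF receptor drive growth of the ducts.

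The libraries held between 35782513 and 47928557 reads' worth of sequenced bases, and values are given as coverage in ppm of the library total after normalization. The E libraries were further apart than the others, where the log2 difference between replicates had an SD of 0.558 over genes, against 0.318 for M and 0.309 for RE. Among the members, 9 of 10 were higher in the second than in the first E library, by a median of 0.61 on the log2 scale, whereas 48.9% of all genes tested were higher there. The epithelial keratins *Krt8* and *Krt18* and *Cdh1* were high in every library, and the summed luminal markers ranged from 1120 to 1380 ppm in E, from 1150 to 1180 in M and from 663 to 711 in RE, with *Krt19* near the floor. The basal or myoepithelial markers (6 of 6 measured) summed to between 307 and 376, 792 and 897, and 499 and 502 ppm, and the fibroblast markers (5 of 6 measured) to between 136 and 165, 989 and 1140, and 1070 and 1250 ppm in the E, M and RE libraries. The leukocyte markers (5 of 6 measured, with *Ptprc* and *Cd3e* at or under 3 reads' worth in every library) summed to between 6.78 and 36.8 ppm, highest in M, and the endothelial markers to at most 2.73 ppm. The genes of a list did not all share the course of its sum. Of the basal or myoepithelial list, *Krt14*, *Krt17* and *Acta2* were highest in M, *Trp63* (173 and 158 ppm) and *Krt5* in RE, and *Myh11* in E. Of the luminal list, *Krt8* was higher in M than in E, while *Krt18* was lower. The part of these lists in the results below was not tested.

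A gene was called where its log2 fold change was over 1 or under −1 and its Benjamini-Hochberg adjusted p in limma was below 0.01. Errors of log2 fold changes are standard errors (SE). Of the 10 members, 1 was called in E vs. M, where 17.0% of all genes tested were called (8.58% higher and 8.39% lower), 3 were called in M vs. RE against 12.9% of all genes, and 2 in E vs. RE against 9.37%. The libraries of the groups did not overlap for 7, 8 and 7 members in these comparisons, beside 70.6%, 78.1% and 66.7% of all genes. An unadjusted p below 0.05 was reached by 5, 3 and 5 members, beside 50.9%, 42.7% and 43.5% of all genes. The calls fell on 3 genes, *Areg* and *Hbegf* among the ligands and *Erbb3* among the receptors, and the other 7 were called in none. The comparisons share libraries, so that their values are given side by side and not as separate evidence.

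**Figure D1:**
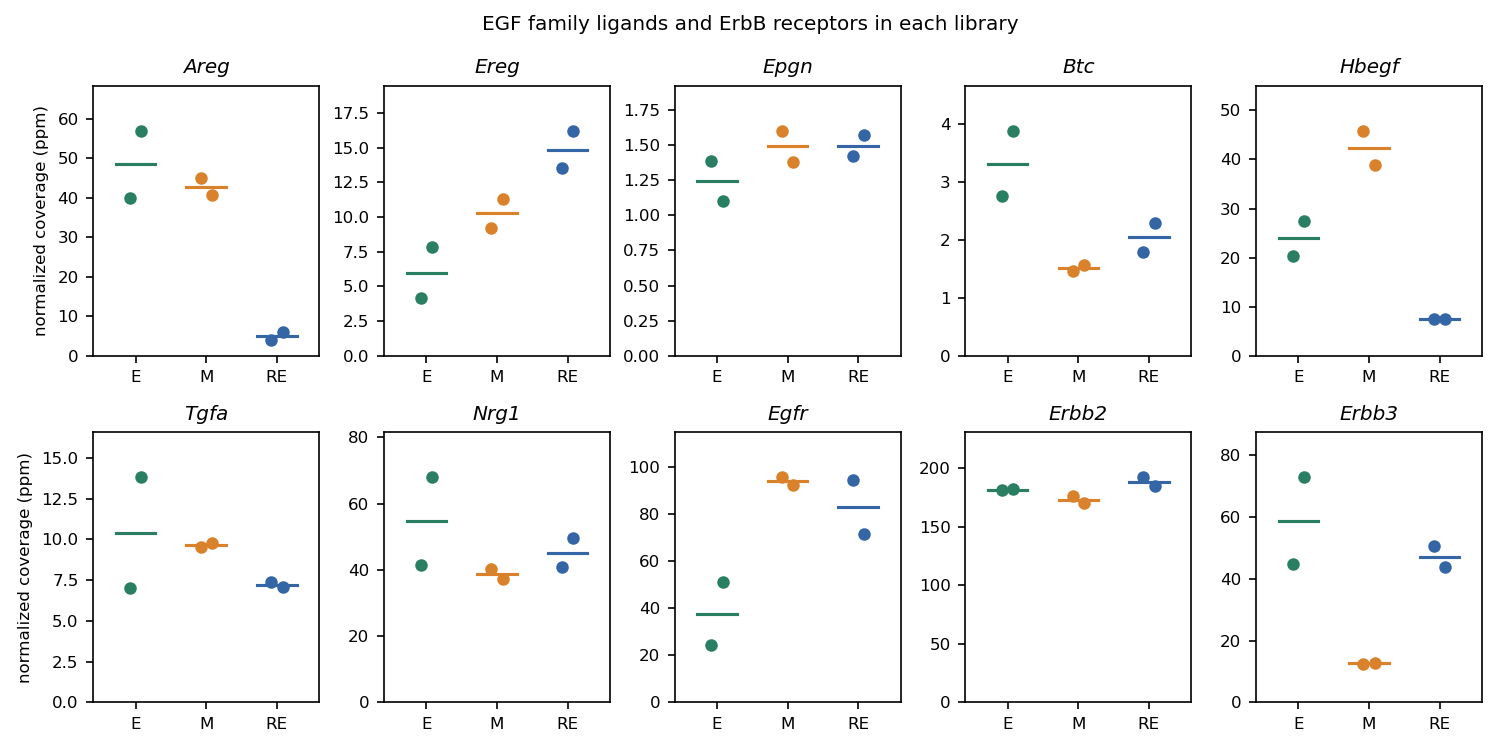
Normalized coverage (ppm, linear axis from 0) of each ligand and receptor in the E, M and RE cells, with a point for each library and a line at the mean of 2. *Areg* and *Hbegf* were lowest in both RE libraries, *Erbb3* was lowest in both M libraries, and *Erbb2* stayed between 170 and 192 ppm.

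*Areg* had the largest log2 fold change of the 10 members, and RE was called lower against E and against M. Its coverage was 40.0 and 56.9 ppm in the E libraries, 44.9 and 40.7 ppm in the M libraries, and 4.02 and 6.02 ppm in the RE libraries. Both RE libraries were below all others, while the E and M libraries overlapped. From M to RE it fell 8.53-fold (log2 fold change −3.09 ± 0.241 SE, limma adjusted p = 9.75e-05), and its mean in the RE cells was 0.103 of the mean in E (log2 fold change −3.25 ± 0.241 SE, limma adjusted p = 0.000344). In E vs. M the log2 fold change was −0.16, with a 95% confidence interval from −0.72 to 0.40 (limma adjusted p = 0.623). Both calls held under all 15 other settings, with log2 fold changes between −3.38 and −2.81 in M vs. RE and between −3.54 and −2.97 in E vs. RE.

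*Areg* lies on chromosome 5 beside *Epgn*, *Ereg* and *Btc*, in the order *Epgn*, *Ereg*, *Areg*, *Btc* with no other protein-coding gene between them in the RefSeq annotation of GRCm38.p6. The 250 bases before the annotated start are shown for the 3 of these neighbours that have an entry in the RefSeq promoter table (GRCm38.p6, which is newer than the build of the deposited values), because these adjacent genes differed in their behaviour. They are *Areg* (chr5:91139349-91139598, plus strand), *Epgn* (chr5:91027267-91027516, plus strand) and *Btc* (chr5:91402995-91403244, minus strand), each written 5′ to 3′ on the strand of the gene, with matches to the half-site of the cAMP response element (TGACG on either strand) in capitals. The bases that follow the annotated start were found in a GENCODE M21 transcript of *Areg* and of *Btc* but not of *Epgn*, so that the start of *Epgn* rests on the RefSeq entry alone.
Areg: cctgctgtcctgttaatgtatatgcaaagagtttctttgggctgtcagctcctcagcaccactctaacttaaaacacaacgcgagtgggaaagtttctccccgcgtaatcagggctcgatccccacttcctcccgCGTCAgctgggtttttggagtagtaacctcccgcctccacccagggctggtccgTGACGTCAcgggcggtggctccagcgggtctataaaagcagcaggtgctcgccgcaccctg
Epgn: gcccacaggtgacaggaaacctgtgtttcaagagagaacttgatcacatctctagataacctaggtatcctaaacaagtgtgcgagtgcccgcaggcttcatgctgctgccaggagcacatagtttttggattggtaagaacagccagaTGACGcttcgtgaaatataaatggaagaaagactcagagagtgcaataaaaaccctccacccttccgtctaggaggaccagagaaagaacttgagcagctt
Btc: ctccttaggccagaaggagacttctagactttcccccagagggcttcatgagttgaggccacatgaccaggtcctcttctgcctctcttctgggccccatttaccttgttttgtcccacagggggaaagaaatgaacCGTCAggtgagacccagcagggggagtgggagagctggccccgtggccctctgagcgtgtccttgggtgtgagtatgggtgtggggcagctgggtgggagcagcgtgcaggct
The window before *Areg* holds 3 half-sites, of which 2 overlap to form the whole palindrome TGACGTCA between 61 and 54 bases before the start. The half-site occurs in 17.8% of 32851 windows of the same length, and the whole palindrome, which was searched for after the half-sites had been seen, in 1.55%. *Epgn* and *Btc* hold 1 half-site each and no whole palindrome, and so does *Erbb2*. Of 10 members, 6 had an entry. The AP-1 site TGANTCA was found before none of the 6, the SMAD-binding motif CAGACA before *Tgfa* and the TEAD motif GGAATG before *Erbb2*, while 6.75%, 17.1% and 12.6% of all windows hold them. These matches describe the letters of the windows and not binding.

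*Ereg*, the neighbour of *Areg*, had its highest level where *Areg* had its lowest. It was at 4.14 and 7.82 ppm in the E libraries, 9.24 and 11.3 ppm in the M libraries, and 13.5 and 16.2 ppm in the RE libraries, so that the groups did not overlap in any comparison. The E vs. RE log2 fold change was 1.36 (SE 0.296, 95% confidence interval 0.67 to 2.05), which was past the fold threshold but not called (limma adjusted p = 0.0136). It was called with the replicate number as a block (adjusted p = 0.00578) and with array weights (0.00732), both by limma. The log2 fold change was 1.82 without the second E library and 0.91 without the first. In E vs. M *Ereg* was at 0.83 (limma adjusted p = 0.0561), or 1.26 without the second E library and 0.38 without the first. In M vs. RE it was at 0.53 (limma adjusted p = 0.218).

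*Btc* and *Epgn* were low in all libraries. *Btc* was at 2.75 and 3.88 ppm in E, 1.46 and 1.56 ppm in M, and 1.79 and 2.30 ppm in RE, and its libraries did not overlap between any groups. Its difference in E vs. M (log2 fold change −1.07 ± 0.259 SE, limma adjusted p = 0.0142) was not called, but it was with scaling by library totals (−1.35, adjusted p = 0.00515). The log2 fold change was −1.31 without the first E library and −0.85 without the second. *Epgn* lay between 1.10 and 1.60 ppm in all 6 libraries, with log2 fold changes of 0.25 in E vs. M (95% confidence interval −0.33 to 0.83) and 0.00 in M vs. RE (−0.58 to 0.59). The first of these changed sign to −0.03 with scaling by library totals.

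*Hbegf*, a ligand that also binds heparan sulphate, had its highest level in the M cells and fell below the level of the E cells in the RE cells. Its coverage was 20.4 and 27.5 ppm in E, 45.8 and 38.9 ppm in M, and 7.57 and 7.47 ppm in RE, and no groups overlapped. The M vs. RE difference, 5.63-fold lower in RE (log2 fold change −2.47 ± 0.186 SE, limma adjusted p = 8.44e-05), was called under all 15 other settings. The RE cells were also below the E cells (−1.64 ± 0.186 SE, limma adjusted p = 0.00123). This call was lost without the first or the second RE library, although the log2 fold change stayed at −1.65 and −1.63. The difference between E and M (0.83 ± 0.186 SE, limma adjusted p = 0.0102) was under the fold threshold and not called. It was 1.02 without the second E library and 0.61 without the first.

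*Tgfa* and *Nrg1* were called in no comparison and under no other setting. *Tgfa* was at 7.02 and 13.8 ppm in E, 9.54 and 9.77 ppm in M, and 7.38 and 7.07 ppm in RE, so that the E libraries spanned the range of the others. Its log2 fold change was −0.03 in E vs. M (95% confidence interval −0.71 to 0.66) and −0.44 in E vs. RE (−1.13 to 0.24). Without the second E library these became 0.43 and 0.04. *Nrg1* was at 41.4 and 67.9 ppm in E, 40.2 and 37.3 ppm in M, and 40.9 and 49.6 ppm in RE. Its log2 fold changes were −0.45 in E vs. M (95% confidence interval −1 to 0.09), 0.22 in M vs. RE (−0.33 to 0.76) and −0.23 in E vs. RE (−0.78 to 0.31), the last of which became 0.13 without the second E library.

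**Figure D2:**
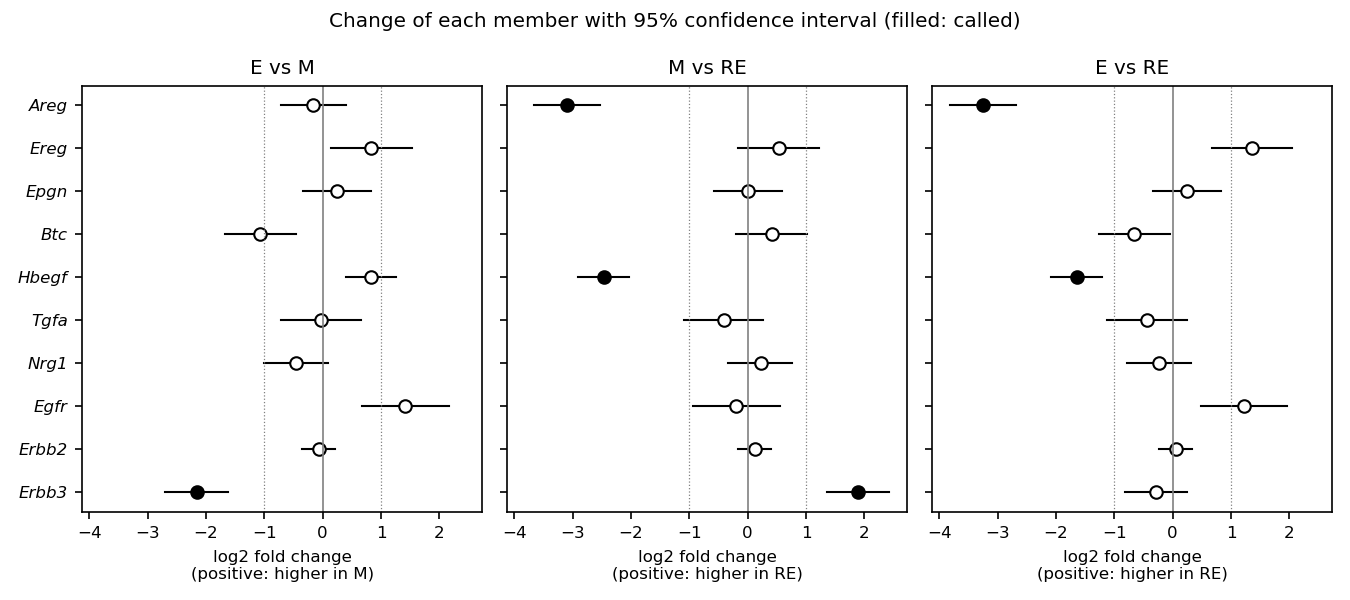
Log2 fold change of each member (points, filled where called) with its 95% confidence interval by limma (bars) in E vs. M, M vs. RE and E vs. RE, with dotted lines at −1 and 1. *Erbb3* was the only member called in E vs. M (−2.16), *Areg* (−3.09), *Hbegf* (−2.47) and *Erbb3* (1.89) were called in M vs. RE, and *Areg* (−3.25) and *Hbegf* (−1.64) in E vs. RE.

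To compare the ligands with each other, coverage was divided by the median length of the coding transcripts of each gene in the GENCODE M21 basic set, and in a second way by the length of its merged exons. On the first scale *Areg* was the most abundant ligand in the E cells at 39.9 ± 9.84 ppm per kb (SD, n = 2), followed by *Nrg1* at 20.7 ± 7.08 and *Hbegf* at 10.1 ± 2.11. *Ereg*, *Tgfa*, *Btc* and *Epgn* were between 0.971 and 2.30 ppm per kb. In the M cells *Areg* (35.2 ± 2.44) was followed by *Hbegf* (17.8 ± 2.05) and *Nrg1* (14.7 ± 0.775). In the RE cells *Nrg1* came first at 17.1 ± 2.33, and *Areg* (4.13 ± 1.16), *Ereg* (3.60 ± 0.462) and *Hbegf* (3.17 ± 0.0298) followed. The libraries of *Areg* and *Ereg* overlapped there, so that their order was not larger than the spread between replicates.

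Of the summed level per kb of the 7 ligand transcripts, *Areg* made up 53.3% and 51.3% in the E libraries, 47.7% and 47.5% in the M libraries, and 11.6% and 14.4% in the RE libraries. The share of *Nrg1* was between 19.6% and 28.1% in the E and M libraries and 54.1% and 54.6% in the RE libraries, and that of *Ereg* went from between 1.62% and 3.88% to 11.4% in both RE libraries. *Hbegf* reached 24.9% and 23.2% in the M libraries against 13.9% and 12.7% in E. The shares depend on the length taken for *Nrg1*, which has 9 coding transcripts in the basic set. Per kb of merged exons, *Areg* made up between 66.3% and 73.8% in the E and M libraries and 23.0% and 28% in the RE libraries, and *Nrg1* 27.4% and 27.1% in the RE libraries, close to *Areg*. The lower share of *Areg* and the higher share of *Ereg* in RE were thus seen with both lengths. The mean of *Nrg1* was above that of *Areg* in the RE cells with both, but per kb of merged exons by only 4.37 against 4.13 ppm per kb, and the second RE library had more *Areg* than *Nrg1*. Shares are parts of a whole, so that a fall of *Areg* alone raises the others. In M vs. RE the log2 fold change of *Nrg1* itself was 0.22 (limma adjusted p = 0.52). That of *Ereg* was 0.53 in M vs. RE (limma adjusted p = 0.218) and 1.36 in E vs. RE (adjusted p = 0.0136).

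**Figure D3:**
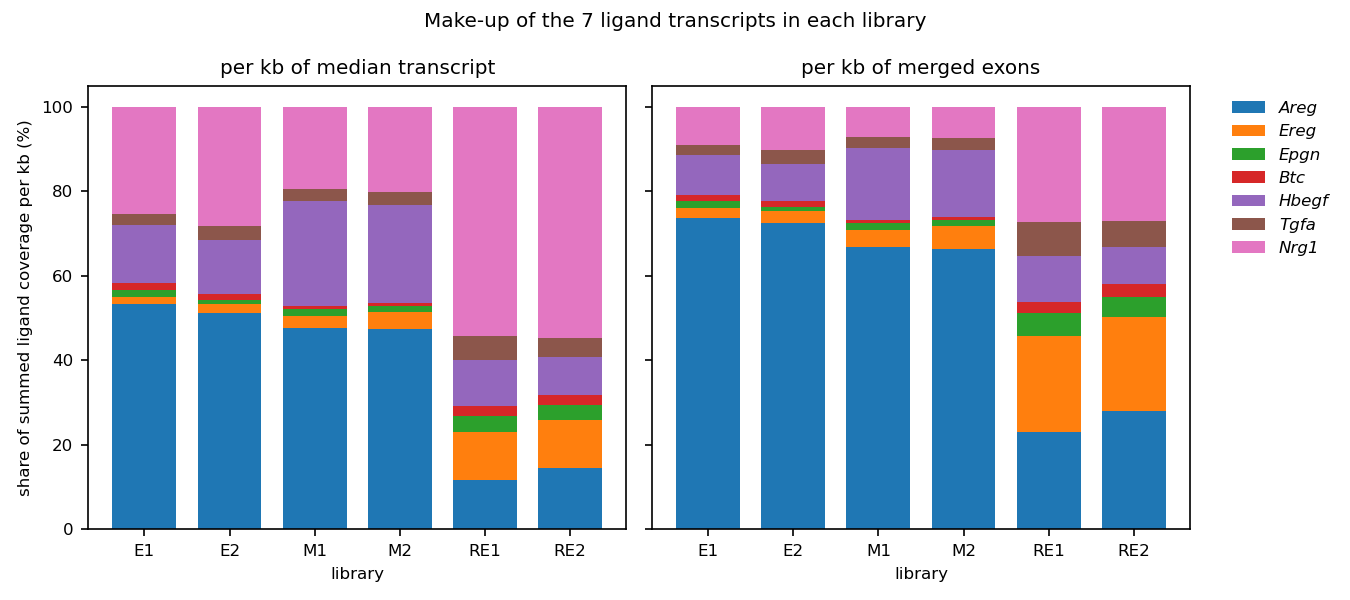
Share (%) of each ligand in the summed coverage per kb of the 7 ligands, in each of the 6 libraries, per kb of median coding transcript (left) and of merged exons (right). *Areg* went from between 47.5% and 53.3% in the E and M libraries to 11.6% and 14.4% in the RE libraries on the left, and from between 66.3% and 73.8% to 23.0% and 28% on the right.

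Of the receptors, *Erbb3* fell in the M cells and rose again in the RE cells. It was at 44.6 and 72.7 ppm in E, 12.5 and 12.7 ppm in M, and 50.4 and 43.8 ppm in RE. The M libraries were below all others and the E and RE libraries overlapped. The decrease in E vs. M (log2 fold change −2.16 ± 0.228 SE, limma adjusted p = 0.000355) was called under all 15 other settings, and the increase in M vs. RE, 3.73-fold, was called as well (1.89 ± 0.228 SE, limma adjusted p = 0.00084). That second call was lost without the first M library (adjusted p = 0.0123), the second M library (0.0115) or the first RE library (0.0151), with log2 fold changes between 1.79 and 1.90. In E vs. RE the log2 fold change was −0.28 (95% confidence interval −0.81 to 0.25), and it became 0.08 without the second E library.

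*Egfr* was higher in the M and RE cells than in the E cells, but it was not called. It was at 24.3 and 51.1 ppm in E, 95.6 and 92.6 ppm in M, and 94.4 and 71.4 ppm in RE, so that both M and both RE libraries were above both E libraries. The log2 fold change was 1.42 in E vs. M (SE 0.318, limma adjusted p = 0.0102), just past the limit on p, and 1.22 in E vs. RE (SE 0.318, adjusted p = 0.0258). The E libraries differed 2.11-fold in *Egfr*. With array weights, which give less weight to uneven libraries, both differences were called (adjusted p = 0.00205 and 0.00795 by limma). Their size depended on the E library kept. The log2 fold changes were 1.93 and 1.76 without the second E library, and 0.88 and 0.68, under the fold threshold, without the first. M vs. RE gave −0.20 (95% confidence interval −0.94 to 0.55), or 0.01 with scaling by library totals. An antisense gene, *Egfros*, overlaps *Egfr* in the annotation, and the strand of the counting is not given in the sources used here, so that coverage of the 2 cannot be told apart.

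*Erbb2* was the most even member. Its coverage was 181 and 182 ppm in E, 176 and 170 ppm in M, and 192 and 185 ppm in RE. The log2 fold changes were −0.07 (95% confidence interval −0.35 to 0.21) in E vs. M, 0.12 (−0.16 to 0.40) in M vs. RE and 0.05 (−0.23 to 0.33) in E vs. RE, so that each interval lay within a change of 1.5-fold. Per kb it was the most abundant receptor in all groups, at 36.2 ± 0.141 ppm per kb in E, 34.5 ± 0.846 in M and 37.6 ± 0.988 in RE (SD, n = 2), against 9.75 ± 3.30, 2.09 ± 0.0235 and 7.83 ± 0.776 for *Erbb3* and 5.73 ± 2.88, 14.3 ± 0.323 and 12.6 ± 2.47 for *Egfr*. Per kb of merged exons *Erbb2* was still first, but *Egfr* and *Erbb3* changed places in the RE cells, at 7.32 and 7.83. *Mien1*, on the other strand, overlaps *Erbb2* in the annotation, and antisense or non-coding genes also overlap *Ereg*, *Tgfa* and *Nrg1*.

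Ratios within a library do not depend on how libraries are scaled, although their size depends on gene length, so that their change between groups is what can be read. The coverage of *Egfr* over that of *Erbb3* was 0.544 and 0.702 in the E libraries, 7.63 and 7.28 in the M libraries, and 1.87 and 1.63 in the RE libraries. It was 12.1-fold higher in M than in E, fell 4.26-fold from M to RE, and stayed 2.83-fold above E in the RE cells. *Ereg* over *Areg* was 0.103 and 0.137 in E, 0.206 and 0.278 in M, and 3.37 and 2.69 in RE, which is 25.2-fold from E to RE. *Hbegf* over *Areg* was 0.509 and 0.484 in E, 1.02 and 0.954 in M, and 1.88 and 1.24 in RE. The 3 groups did not overlap in any of these 3 ratios. *Egfr* over *Erbb2* was 0.134 and 0.281 in E, 0.542 and 0.546 in M, and 0.492 and 0.387 in RE. *Erbb3* over *Erbb2* was 0.246 and 0.4 in E, 0.071 and 0.075 in M, and 0.262 and 0.237 in RE, so that E and RE overlapped. All ratios are given as values without a test, and how often ratios of other genes overlap was not computed. Of single genes, between 66.7% and 78.1% did not overlap in a comparison.

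**Figure D4:**
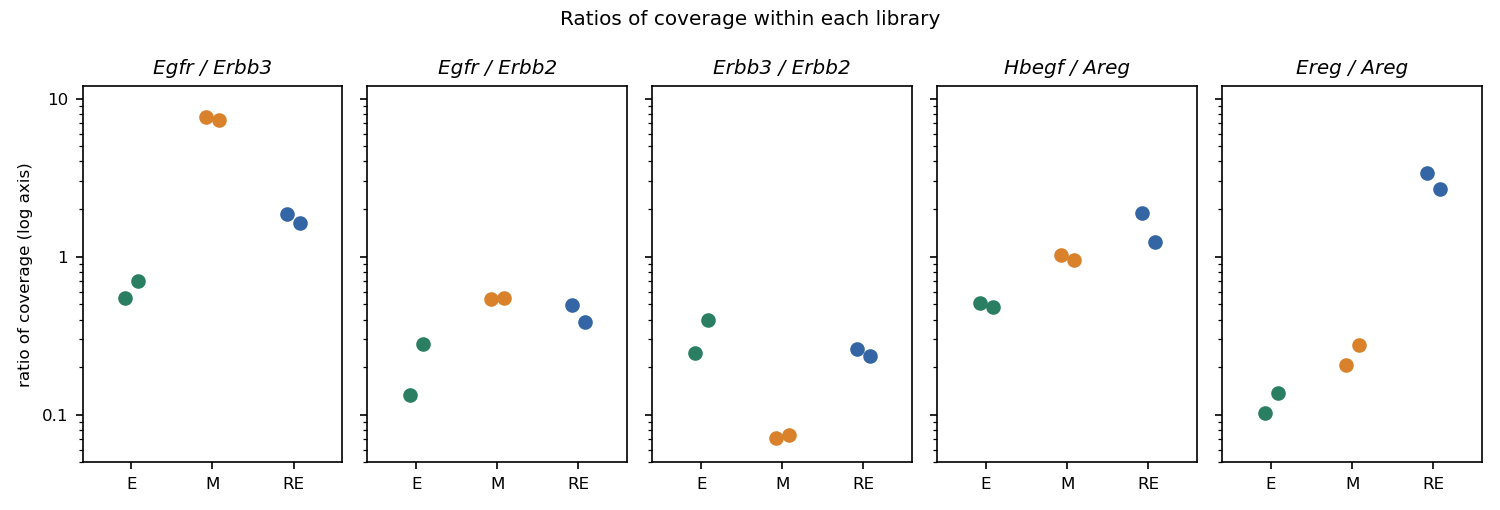
Ratio of the coverage of 2 genes within each library (points, log axis, the same in all panels) in the E, M and RE cells. *Egfr* over *Erbb3* was highest in M (7.63 and 7.28) and *Ereg* over *Areg* was highest in RE (3.37 and 2.69).

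Of the rest of the family, *Nrg3* and *Erbb4* were not found under these symbols among the 17428 genes and were not analysed. *Nrg4* stayed at or under 7.34 reads' worth in every library and was not tested. *Egf* was at 0.884 and 2.32 ppm in E, 0.890 and 1.42 ppm in M, and 4.69 and 3.65 ppm in RE. Both RE libraries were above all others, but no difference was called in the main fit. The log2 fold change was 1.79 in M vs. RE (limma adjusted p = 0.0185) and 1.46 in E vs. RE (adjusted p = 0.041). With array weights, or with only M and RE fitted, 1 of the 2 tested genes *Egf* and *Nrg2* was called higher in M vs. RE. *Nrg2* was at 2.02 and 4.43 ppm in E and fell to 0.168 and 0.534 ppm in M (−2.91, limma adjusted p = 0.0032), a call that was lost without the first M library (adjusted p = 0.0245). In RE it was at 0.761 and 0.660 ppm.

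The lists of other pathway genes held 97 genes, of which 91 were tested. They gave 31 calls in E vs. M, of which 21 were lower, 24 in M vs. RE, of which 9 were lower, and 14 in E vs. RE, of which 8 were lower, beside 17.0%, 12.9% and 9.37% of all genes tested called in either direction and 8.39%, 4.79% and 3.17% called lower. The count in E vs. M was 16 without the first and 15 without the second M library, that in M vs. RE was between 11 and 15 without 1 of the M or RE libraries, and that in E vs. RE was 27 without the second E library, 9 without either M library, and 1 and 3 without the first and the second RE library. The median log2 fold change of the 91 genes was 0.13, 0.03 and 0.16, beside 0.00, −0.02 and 0.01 for all genes tested.

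Among the genes that release or traffic the ligands (13 tested of 14), 3 were called higher and 1 lower in E vs. M, 1 higher and 2 lower in M vs. RE, and 1 higher in E vs. RE. Of all genes, 8.58% and 8.39%, 8.08% and 4.79%, and 6.20% and 3.17% were called higher and lower, so that the count in E vs. RE was close to the background. The median log2 fold change of the list was 0.37, −0.18 and 0.11. *Adam10*, a sheddase of betacellulin and other ligands, was at 91.4 and 111 ppm in E, 311 and 305 ppm in M, and 198 and 172 ppm in RE (log2 fold change 1.61 in E vs. M, limma adjusted p = 0.00019). This call was kept without each library in turn. *Adam12*, a metalloprotease that can shed *Hbegf* precursor, was at 23.2 and 77.7 ppm in E, 337 and 378 ppm in M, and 32.6 and 37.3 ppm in RE. It was higher in M than in E (3.07, limma adjusted p = 0.00192) and lower in RE than in M (−3.35, adjusted p = 0.00164), but without 1 of the M libraries, or in the second comparison without 1 of the RE libraries, the adjusted p rose to as much as 0.0202 and 0.0216. *Adam8* followed the same course (1.37, adjusted p = 0.000478, and −1.32, adjusted p = 0.000703, by limma), with adjusted p up to 0.011 and 0.0157 without 1 library. *Adam17*, the main sheddase of amphiregulin and TGFα, was at 90.0 and 79.2 ppm in E, 137 and 114 ppm in M, and 112 and 108 ppm in RE, and it was not called (0.56 in E vs. M, limma adjusted p = 0.0179; it was picked for its role and not by the rule for named genes). *Nkd2*, which carries TGFα precursor to the cell surface, was at 1.08 and 2.73 ppm in E, 1.67 and 2.05 ppm in M, and 16.3 and 13 ppm in RE. It was called in M vs. RE (2.91, limma adjusted p = 0.00137) and E vs. RE (3.01, adjusted p = 0.00202), with adjusted p up to 0.0214 and 0.034 without 1 library. *Rhbdl2*, a rhomboid protease, was called lower in M than in E (−1.06, limma adjusted p = 0.00878), with adjusted p up to 0.0629 without 1 library.

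Among the inhibitors of the receptors and the genes that degrade them (15 tested of 15), 3 were called higher and 2 lower in E vs. M, 2 higher in M vs. RE, and 2 higher and 1 lower in E vs. RE, beside 17.0%, 12.9% and 9.37% of all genes called in either direction, so that the count in M vs. RE was at the background. The median log2 fold change of the list was 0.43, 0.13 and 0.52. *Sh3kbp1*, an adaptor that joins Cbl to receptor endocytosis, was at 2.24 and 3.55 ppm in E, 38.0 and 33.5 ppm in M, and 42.3 and 45.1 ppm in RE. Its log2 fold change was 3.61 in E vs. M (limma adjusted p = 3.47e-05) and 3.90 in E vs. RE (adjusted p = 0.000207), and both calls were kept without each library in turn. *Cblb*, a ubiquitin ligase for activated receptors, rose from 22.6 and 29.2 ppm in E to 96.6 and 106 ppm in M and was at 87.9 and 80.2 ppm in RE. It was called in E vs. M (1.98, limma adjusted p = 0.000114) and in E vs. RE (1.70, adjusted p = 0.000659), the latter with adjusted p up to 0.0181 without 1 library. Its epithelial relative *Cblc* went the other way, from 25 and 25.2 ppm in E to 4.38 and 4.12 ppm in M and 12 and 11 ppm in RE, and was called in all 3 comparisons (−2.53, 1.42 and −1.12, adjusted p = 3.47e-05, 0.00053 and 0.00264 by limma). The call in E vs. M was kept without each library, while the adjusted p of the others rose to as much as 0.0134 and 0.0368. *Lrig3* was called higher (1.26, limma adjusted p = 0.00131) and *Socs5* lower (−1.34, adjusted p = 0.00255) in M than in E, and *Socs5* was called higher again in RE (1.25, adjusted p = 0.00449), with adjusted p up to 0.0202, 0.0296 and 0.0529 without 1 library.

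Among the adaptors and transducers (25 tested of 26), 21, 21 and 22 were not called in E vs. M, M vs. RE and E vs. RE. Their 4, 4 and 3 calls were close to the background of 17.0%, 12.9% and 9.37% of all genes, and the median log2 fold change was 0.37, −0.02 and 0.48. *Pik3r1*, the regulatory subunit of PI3 kinase that binds ErbB3, was at 148 and 215 ppm in E, 37.4 and 37.7 ppm in M, and 386 and 343 ppm in RE. It was called in E vs. M (−2.24, limma adjusted p = 0.000126) and M vs. RE (3.27, adjusted p = 2.8e-05), both kept without each library in turn, and at the limit in E vs. RE (1.03, adjusted p = 0.00679, up to 0.0862 without 1 library). *Stat5a*, a transducer of prolactin and ErbB4 signals in the mammary gland, was at 39.4 and 44.7 ppm in E, 17.1 and 17.4 ppm in M, and 81.9 and 67.4 ppm in RE, with calls in E vs. M (−1.28, limma adjusted p = 0.000622, up to 0.0121 without 1 library) and M vs. RE (2.10, adjusted p = 7.23e-05). *Grb7*, an adaptor that binds ErbB2 and ErbB3, was lower in M (−1.32, limma adjusted p = 0.000587) and in RE (−1.26, adjusted p = 0.00158) than in E, with adjusted p up to 0.0114 and 0.0296 without 1 library. *Akt1* was higher in M than in E (1.07, limma adjusted p = 0.000573) and lower in RE than in M (−1.02, adjusted p = 0.000871), but with scaling by library totals these were 0.76 and −0.81 and not called, and without 1 library the adjusted p reached 0.014 and 0.0242. *Stat3* was called higher in RE than in E (1.16, limma adjusted p = 0.00423), with adjusted p up to 0.0634 without 1 library.

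The transcripts that EGF receptor and ERK signalling is known to induce (36 tested of 37) were more often called lower than higher in the M cells. In E vs. M, 14 were called lower and 3 higher (1 higher and 16 lower with scaling by library totals), where 8.39% of all genes were called lower, and the median log2 fold change of the list was −0.79. In M vs. RE 10 were called higher and 5 lower, beside 8.08% and 4.79% of all genes, with a median of 0.38, and in E vs. RE 1 was called higher and 6 lower, beside 6.20% and 3.17%, with a median of −0.24. Without the first or the second M library, 10 and 8 were called lower in E vs. M. The calls of lower genes in M vs. RE were 2 without the first M, the second M or the first RE library, and the calls of higher genes there were between 7 and 9 without 1 of the M or RE libraries. Without the first or the second RE library, 0 and 2 were called lower in E vs. RE. Many of these genes also respond to serum, stress and handling of the cells, which were not measured here. The list was chosen with earlier results of these data known, so that its counts beside the background describe it and test nothing.

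*Fos*, an immediate-early gene for a subunit of AP-1, was at 223 and 156 ppm in E, 14.4 and 12.3 ppm in M, and 60.3 and 51.7 ppm in RE. It fell by 3.80 on the log2 scale in E vs. M (limma adjusted p = 1.84e-05), was 2.06 higher in M vs. RE (adjusted p = 0.000268), and remained lower than in E in the RE cells (−1.74, adjusted p = 0.00124, up to 0.0202 without 1 library). *Fosb* fell likewise in E vs. M (−3.37, limma adjusted p = 5.5e-05) and was still low in RE (−2.75, adjusted p = 0.000488, 0.0132 without the first RE library), at 6.09 and 7.45 ppm against 54.2 and 38.7 ppm in E. *Spry1*, a feedback inhibitor of receptor tyrosine kinases, was at 362 and 324 ppm in E, 49.1 and 30.5 ppm in M (−3.14, limma adjusted p = 6.52e-05), and 135 and 116 ppm in RE. *Dusp5*, a phosphatase of nuclear ERK, was at 73.8 and 78.5 ppm in E, 30.7 and 29.6 ppm in M, and 22.3 and 22.0 ppm in RE, with a log2 fold change of −1.77 in E vs. RE (limma adjusted p = 0.000333, 0.0117 without the first RE library). *Fos*, *Fosb*, *Spry1* and *Dusp5* kept their calls in E vs. M without each library in turn, as did 4 other genes of the 17 called.

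Other genes of the list rose from M to RE. *Klf4* was at 115 and 143 ppm in E, 18.1 and 20 ppm in M, and 138 and 145 ppm in RE (2.89 in M vs. RE, limma adjusted p = 1.96e-05). *Egr2* was at 20.1 and 16.8 ppm in E, 8.06 and 7.85 ppm in M, and 38.6 and 36.0 ppm in RE, above the M cells (2.21, limma adjusted p = 6.42e-05) and at the limit above the E cells (1.02, adjusted p = 0.00368, up to 0.0622 without 1 library). *Egr3* rose from 1.43 and 1.01 ppm in M to 6.18 and 7.72 ppm in RE (2.42, limma adjusted p = 0.000355). The opposite course was that of *Ptgs2*, the inducible cyclooxygenase, at 269 and 366 ppm in E, 927 and 827 ppm in M, and 200 and 214 ppm in RE. It was called in E vs. M (1.48, limma adjusted p = 0.000622, 0.0115 without the first M library) and in M vs. RE (−2.08, adjusted p = 0.000141). *Il11* was at 0.146 and 0.197 ppm in E, at 0.660 and 1.44 ppm in M and at 1 read's worth in each RE library, for which no fold is given, *Hmga2* was lower in RE than in M (−2.06, limma adjusted p = 0.00309, up to 0.0324 without 1 library), and *Klf6* was higher in M than in E (1.12, adjusted p = 0.000777, up to 0.0165 without 1 library, and 0.81 with scaling by library totals).

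**Figure D5:**
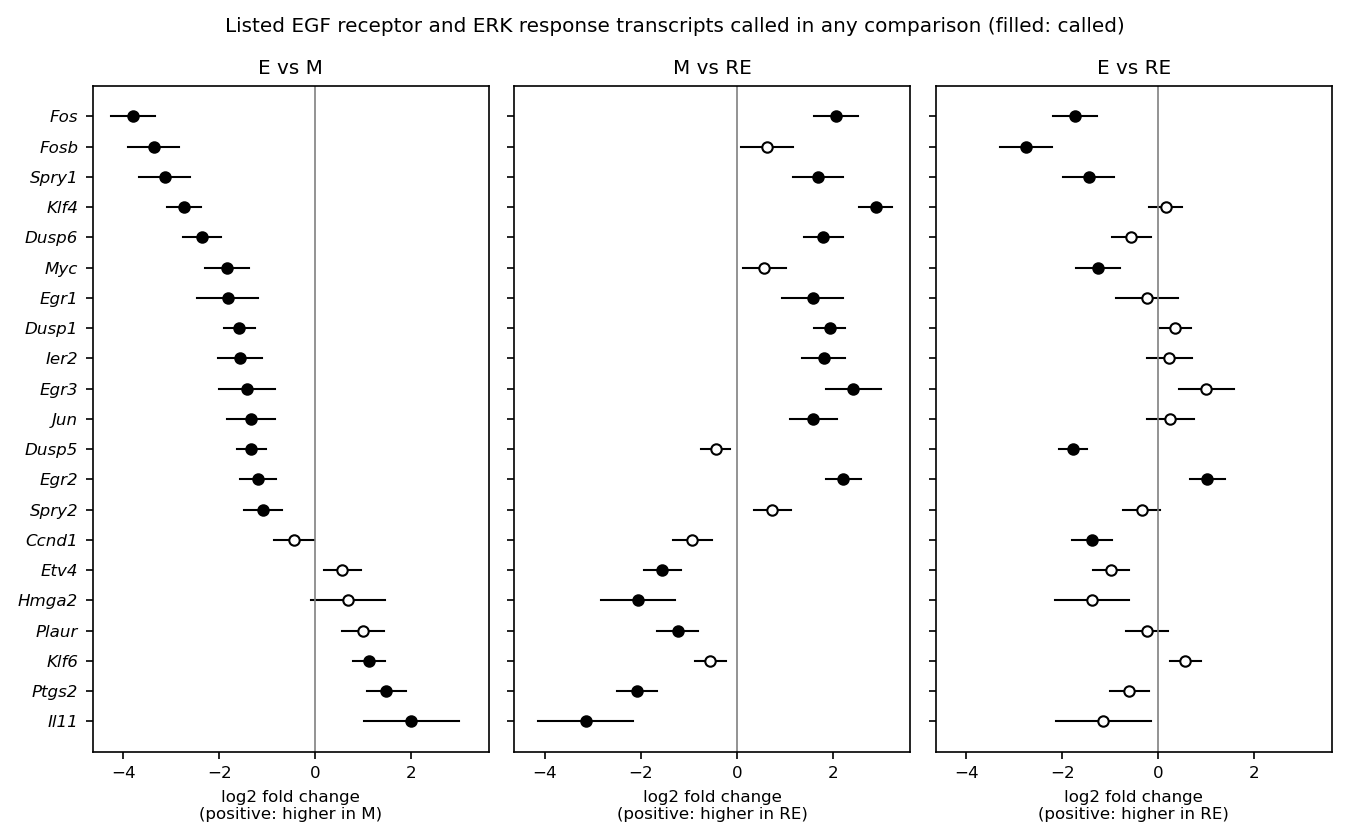
Log2 fold change (points, filled where called) with 95% confidence interval (bars) of the 21 listed response transcripts called in at least 1 comparison, in E vs. M, M vs. RE and E vs. RE. Of the whole list of 36, 14 were called lower in M than in E (16 with scaling by library totals) and 10 were called higher in RE than in M. In E vs. RE 6 were called lower, among them *Fos*, *Fosb* and *Dusp5*, and 1 was called higher. Each call in E vs. RE was lost in at least 1 fit that left out a library.

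For the 3 called members, the genes with the most similar course over the 6 libraries were sought among 10095 genes with an average log2 level of at least 2, by the Euclidean distance between centred log2 values. Closest to *Areg* were *Il24* (distance 0.42), *Slc4a11* (0.78) and *Wnt7a* (0.796). *Il24* was at 30.2 and 33.0 ppm in E, 29.2 and 25.6 ppm in M, and 3.27 and 4.46 ppm in RE. Closest to *Hbegf* were *Bcat1* (0.223), *Lgr6* (0.28) and *Edn1* (0.397), with *Bcat1* at 22.5 and 29.9, 46.8 and 40.1, and 7.78 and 9.17 ppm. Closest to *Erbb3* were *Rbm47* (0.231), *Btg2* (0.306) and *Map3k1* (0.379), with *Rbm47* at 33.3 and 49.7, 10.4 and 9.65, and 37.7 and 35.8 ppm. The distances describe 6 libraries of 3 stages and carry no test.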

How the data were processed

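The 6 RNA-seq libraries (2 each of E, M and RE) had been mapped by the authors to NCBI-m37 with Bowtie and TopHat2. The authors deposited whole, not normalized coverage values (signal) for 17428 genes. That these are mapped bases summed per gene and not read counts was inferred from the values, since between 44.8% and 48.4% of values from 1 to 400 are multiples of 50. The summing step and its strand setting are not given in the sources used here. No other column of per-sample values was present. Depth is given as bases divided by 50, and intervals cover counting and replicate error only as far as 2 libraries show it. The floor was 3 reads' worth (150 bases).

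Coverage was scaled with TMM without weights (30% and 5% trimmed), with factors from 0.871 to 1.12, and genes were kept that reached 500 bases in 2 or more libraries. Then limma 3.58.1 (R 4.3.3) was fitted to log2(ppm + 0.1) in all 6 libraries, with group only and a mean-variance trend. Changes of low genes are understated on this scale. The edgeR test of the authors needs read counts and was not run. A positive value means higher in the group named second. The fit was tested on simulated E vs. M data, where 198 of 13828 genes were given a log2 change of 2, and it called 93.4% of them, with 1 unchanged gene called. This share holds for a change of that size and not for changes near the fold threshold.

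The members and gene lists were chosen with earlier results of these data known. Genes named in the text are the members, the rest of the family, up to 3 called genes with the largest change per list, comparison and direction, and the 3 closest patterns of each member called in at least 2 comparisons. Some listed genes are not reported here. Alternatives were other scalings, pseudocounts of 0.025 and 1, other filters, thresholds of 1.5-fold and an adjusted p of 0.05, a fit of only the groups compared, a replicate block, array weights and leaving out each library. Whether the cultures were independent beyond being named biological replicates was not checked, so that p-values measure the spread between these libraries.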

Additional observations from a re-analysis of the deposited data

How the results depend on the processing

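Each of the 30 member results was recomputed under 15 settings. Direction and side of the thresholds were kept by 423 of the 450 values, while 11 gained a call, 5 lost one and 11 changed sign, none of the last among called values. Scaling by library totals alone moved the median over all genes to −0.29 (E vs. M), 0.18 (M vs. RE) and −0.08 (E vs. RE), from 0.00, −0.02 and 0.01. With it *Epgn* was at −0.03 (E vs. M), *Egfr* at 0.01 (M vs. RE) and *Erbb2* at −0.04 (E vs. RE), and 2 members were called in E vs. M. Leaving out 1 library at a time, log2 fold changes that crossed 0 ran from −0.41 to 0.07 for *Areg* and from −0.51 to 0.43 for *Tgfa* (E vs. M), from −0.09 to 0.10 for *Epgn* and from −0.40 to 0.00 for *Egfr* (M vs. RE), and from −0.92 to 0.04 for *Tgfa*, −0.59 to 0.13 for *Nrg1* and −0.63 to 0.08 for *Erbb3* (E vs. RE). *Epgn* was at −0.09 without the second M library and −0.07 without the second RE library. Array weights gave 2 called members in E vs. M and 4 in E vs. RE, and an adjusted p below 0.05 gave 3 and 4. Without 1 library, members called ranged between 1 and 4 (E vs. M), 2 and 3 (M vs. RE) and 1 and 4 (E vs. RE), and pathway genes called between 15 and 42, 11 and 27, and 1 and 27. A group left with 1 library was assumed to vary like the others. Fits without 1 E library thus took their spread from M and RE, and the calls gained there do not measure the spread in E. Fitting only the compared groups called 6 pathway genes in E vs. RE in place of 14. The cause was not tested.

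The groups share replicate numbers. Deviations from the group means of libraries with the same number had a correlation over genes of 0.267 between E and M, 0.058 (E, RE) and 0.116 (M, RE), and the numbers were not taken to pair the libraries. With the replicate number as a block, 1, 3 and 3 members and 31, 24 and 15 pathway genes were called, the added member being *Ereg* in E vs. RE (limma adjusted p = 0.00578). The number of libraries limits the precision of these values.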
